A study of Mus musculus with 4 samples.

Results

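The comparison described here sets captopril against plain drinking water in kidneys of mice given a chronic glomerulonephritis (GN), a disease in which the filtering tufts of the kidney are inflamed. It rests on 2 of the 4 arrays of the series, chosen by their titles: GN+Captopril and GN+Water, 1 array each. All 4 arrays carried whole kidney RNA, and the mice were C57BL/6, aged 17 weeks and male according to the labels. Both GN groups received apoferritin, a foreign protein, intraperitoneally at 10 mg on 5 days a week. They also received 100 µg of lipopolysaccharide as adjuvant 3 times a week, for 6 weeks. The saline groups received 0.15 M NaCl in its place. Captopril, an inhibitor of angiotensin converting enzyme, was given at 100 mg/kg/day in the drinking water, and kidneys were taken after 9 weeks. The labels speak of groups of 6 mice and do not say how many mice an array stands for. With 1 array per group there are 0 residual degrees of freedom, so none of the differences below carries an error, a p-value or a check against replicates.

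In this model, circulating antibody against the foreign protein forms complexes that lodge in the glomerulus, where they activate complement and draw in phagocytes through Fc receptors. Angiotensin II, the product of the enzyme that captopril blocks, raises aldosterone, which acts on the distal nephron to retain sodium. The kidney also has a circadian clock, a feedback loop in which Arntl (Bmal1) and Clock switch on their own repressors, and which drives rhythms in tubular transport.

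Levels are log2 probe set values, and a difference is GN+Captopril minus GN+Water on that scale. A gene was read from 1 probe set, the one with the highest mean over the 4 arrays. It was kept when that mean was at or above the 40th percentile of all probe sets, 6.27. This left 8207 of 12394 genes, and a gene low on some arrays could be kept through high levels on others. Of these, 304 (3.70%) were at least 1.5-fold higher on GN+Captopril and 371 (4.52%) at least 1.5-fold lower, together 675 (8.22%). At 2-fold, 114 (1.39%) were higher and 92 (1.12%) lower, together 206 (2.51%). The median difference over all 8207 genes was 0.003, and 371 genes (4.52%) had exactly the same deposited value on both arrays. Gene lists below are described by the number of members past 1.5-fold and by their median, to be read against these values.

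The labels call all mice male, and the sex-linked transcripts on the array labelled GN+Water disagreed with this. In the order Saline+Water, Saline+Captopril, GN+Water, GN+Captopril, which is used for all levels below, Xist stood at 5.21, 5.18, 8.97 and 5.02. Xist is the RNA that coats the inactive X chromosome of female cells. Eif2s3y, on the Y chromosome, stood at 8.02, 8.29, 3.43 and 8.19. The Y-linked genes Uty (6.30, 6.30, 4.27, 6.34) and Kdm5d (4.63, 5.69, 3.52, 5.64) were also lowest on that array. Eif2s3y, Uty and Kdm5d lay there under the background limit of that array, 4.37, which is the 90th percentile over its 27 negative-control probe sets. Xist, Uty and Kdm5d did not reach the level filter.

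Genes listed for this work as sex-biased in kidney differed in the same pair of arrays. Of 30 genes listed as more abundant in male mouse kidney, 21 were kept, and 17 of them were at least 1.5-fold higher on GN+Captopril and 1 lower, with a median difference of 2.30. The array labelled GN+Water was the lowest of the 4 for 18 of the 21. Of 17 kept genes listed as more abundant in females, 8 were at least 1.5-fold lower and 5 higher. The 5 higher members of that list included Fmo5, a flavin monooxygenase gene, at 10.23, 9.56, 5.98 and 9.74. Gsta4, the 1 lower member of the male list, stood at 8.95, 8.70, 10.96 and 8.53, so neither list was uniform. Of the 392 genes in the lists described below, 1 was also in a sex list, Cyp4a14. All lists were selections made for this work, so that count does not show how many of the 392 differ by sex. Sex-linked RNA and treatment differ between the same 2 arrays, so the share of either in any difference below cannot be told apart. The array is called "the array labelled GN+Water" for that reason.

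**Figure D1:**
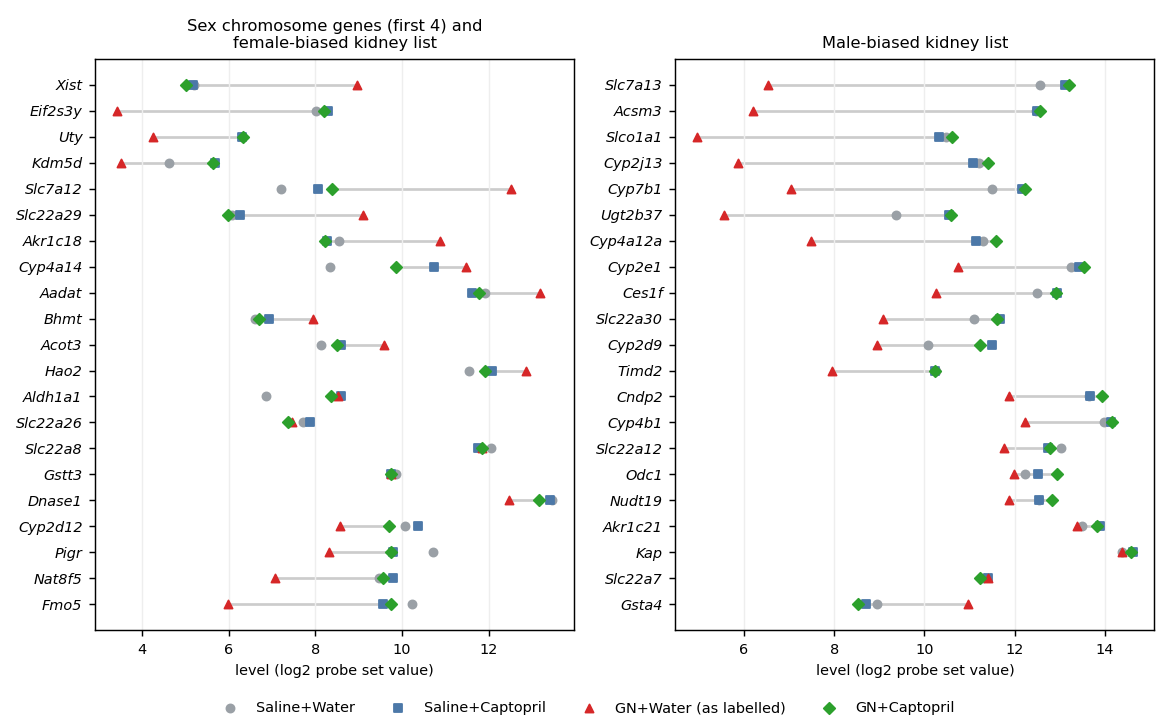
Levels (log2 probe set value) of 4 sex chromosome genes, of the female-biased list and of the male-biased list on the 4 arrays, 1 point per array, with a grey line joining the 2 GN arrays. Xist stands at 8.97 on the GN+Water array and at 5.02 on GN+Captopril, and the array labelled GN+Water is the lowest of the 4 for 18 of 21 male-biased genes.

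Technical controls were close between the 2 GN arrays. Their Pearson correlation over all probe sets was 0.988, against 0.994 between GN+Captopril and Saline+Captopril. The medians of 18 spike-in probe sets were 7.46 and 7.61, and the 3′ minus 5′ differences of beta-actin, a measure of RNA integrity, were 0.57 and 0.62. Saline+Water stood apart with a spike-in median of 10.8. The kidney markers Kap, Umod and Slc34a1 lay between 13.17 and 14.62 on all 4 arrays, and the podocyte gene Nphs1 between 7.08 and 7.90.

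Part of the immune genes were lower on GN+Captopril, and few were higher. Over the 10 immune lists, 155 of 274 listed genes were kept. Of these, 51 (32.9%) were at least 1.5-fold lower and 3 (1.94%) higher, while 101 were neither. The shares over all genes were 4.52% lower and 3.70% higher. The difference was below 0 for 128 of the 155, against 3679 of all 8207 genes. GN+Captopril lay above both saline arrays and below the array labelled GN+Water for 94 (60.6%) of the 155, against 12.1% of all genes. The array labelled GN+Water was the highest of the 4 for 111 (71.6%) of them, against 27.3% of all genes. The level filter used the mean over all 4 arrays, so genes low on both saline arrays could be kept through the GN arrays. Igk (5.05 and 5.41 on the saline arrays) and Jchain (4.41 and 6.02) were such genes. These positions were therefore in part favoured by the filter. In whole kidney, fewer cells of a type and less RNA per cell cannot be told apart. The list medians ran from -1.69 for antibody and plasma cell genes to -0.01 for class I antigen presentation.

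The antibody and plasma cell list had a median of -1.69 over 9 kept of 23 listed genes, with 6 at least 1.5-fold lower and 0 higher. The 6 were antibody chains and Jchain, which joins chains into polymers. Igk stood at 5.05, 5.41, 11.72 and 8.92, and all 4 of its probe sets were lower. Ighg3, an IgG heavy chain, stood at 6.63, 6.52, 12.65 and 10.07, a 5.98-fold lower level on GN+Captopril, with 3 of 4 probe sets lower. Both GN arrays were far above both saline arrays for these chains. Igha, the IgA heavy chain, differed by -0.81 and stood at 7.59, 7.41, 8.15 and 7.34, just under both saline arrays on GN+Captopril. Ighm, the IgM heavy chain, stood at 6.94, 7.29, 13.65 and 11.96, with 9 of 11 probe sets lower. Jchain differed by -2.01 and the light chain gene Iglv1 by -2.04. Antibody genes share sequence, so which chain a probe set reads is uncertain, and the list median moved with the processing, between -2.29 and -0.56 over the alternatives tried. Among kept genes of the plasma cell itself, Sdc1 (CD138) differed by -0.57, Derl3 by -0.46 and Xbp1, the secretory factor that tubule cells also express, by 0.15. Under the level filter, Pou2af1 stood at 4.08, 3.97, 7.45 and 5.10, Tnfrsf17 differed by -0.77 and Prdm1 by -0.42.

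Macrophage and monocyte genes were lower in a narrow band. Of 34 listed genes 22 were kept, 12 of them at least 1.5-fold lower and 0 higher, with a median of -0.63 and a range of -1.02 to 0.18. Adgre1 (F4/80), a surface marker of resident macrophages, stood at 7.26, 7.20, 9.43 and 8.41. Ms4a7 (5.91, 7.18, 9.92, 9.06) and Mpeg1, a pore-forming protein of phagocytes (7.86, 8.25, 10.12, 9.29), lay in the same order. GN+Captopril was above both saline arrays and below the array labelled GN+Water for 19 of the 22. Cd14, a co-receptor for lipopolysaccharide, differed by -0.74, Ly86 by -0.74 and Lst1 by -0.82. The myeloid growth factor receptor gene Csf1r differed by -0.45. Cyba, a subunit of the NADPH oxidase that other kidney cells also express, stood at 12.84, 13.01, 12.84 and 13.02.

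Receptors that bind antibody and their adaptors gave a median of -0.56, with 4 of 8 kept genes at least 1.5-fold lower and 0 higher. Fcgr3, an activating receptor for IgG, stood at 6.75, 6.79, 8.74 and 7.86. Its signalling partners Fcer1g and Tyrobp differed by -0.59 and -0.65, and the phospholipase gene Plcg2 by -0.60. Fcgr2b, the inhibitory IgG receptor, differed by -0.13 and stood between 10.05 and 10.18 on all 4 arrays. Fcgrt, the receptor that recycles IgG, differed by 0.09.

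All 14 kept of 29 lymphocyte and pan-leukocyte genes had a difference below 0, against 3679 of all 8207 genes, 6 of them at least 1.5-fold lower, with a median of -0.48. Cd79b, part of the B cell receptor, stood at 6.45, 5.67, 7.13 and 6.21. Cd53 (7.18, 6.97, 9.15, 8.32) and Ptprc, which encodes CD45 (5.98, 7.71, 9.43, 8.67), were above both saline arrays on both GN arrays. The B cell adaptor gene Blnk differed by -0.70 and Laptm5 by -0.75. Among T cell genes, Cd3d differed by -0.57, while Cd3e (-0.07), Cd4 (-0.09) and Zap70 (-0.23) were closer to 0.

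Complement genes gave a median of -0.66 over 17 kept of 29 listed, with 9 at least 1.5-fold lower and 1 higher. C1qa, one chain of the subunit that binds antibody complexes, stood at 8.89, 8.75, 11.09 and 10.05. C8a, part of the membrane attack complex, stood at 7.23, 8.08, 9.36 and 8.08, and Cfi, the protease that inactivates C3b, at 7.57, 7.88, 9.05 and 8.07. C1qa on GN+Captopril lay above both saline arrays, whereas C8a equalled Saline+Captopril to 2 decimals. The 1 higher member was Masp1, a protease of the lectin pathway, at 7.06, 7.84, 6.52 and 7.60, but only 2 of its 5 probe sets were higher. Cfb of the alternative pathway differed by 0.33 and Cd55, a brake on complement at the cell surface, by 0.51.

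Antigen presentation genes differed little between the 2 GN arrays. In the class II list 1 of 8 kept genes was at least 1.5-fold lower, the protease gene Ctss, and the median was -0.12. H2-Ab1, a class II chain, stood at 10.09, 10.40, 11.55 and 11.43, and Cd74, the invariant chain, at 11.43, 11.20, 12.42 and 12.31. In the class I and immunoproteasome list 0 of 13 kept genes were past 1.5-fold in either direction, with a median of -0.01 and a range of -0.31 to 0.23. B2m, the light chain of class I, stood at 11.79, 12.56, 13.24 and 13.28. Both GN arrays were thus above both saline arrays at nearly the same level for H2-Ab1, Cd74 and B2m.

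Interferon response genes were split. Of 30 kept of 43 listed, 6 were at least 1.5-fold lower and 1 higher, with a median of -0.20. Gbp3, a guanylate-binding protein gene, stood at 6.40, 6.76, 9.59 and 7.37. The antiviral genes Oas1a (7.08, 7.63, 8.49, 7.63) and Oasl2 (6.05, 6.56, 7.71, 7.05), the deconjugase gene Usp18 (-0.69) and Trim30a (-0.88) were lower on GN+Captopril as well. Gbp6 stood at 6.16, 6.36, 7.41 and 8.10, higher on GN+Captopril than on any other array. The GTPase genes Igtp (0.56), Irgm1 (0.40) and Irgm2 (0.32), named after their values were seen, differed in the same direction as Gbp6.

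Among chemokines, cytokines and their receptors, 7 of 30 kept of 50 listed were at least 1.5-fold lower and 1 higher, with a median of -0.21. Cxcl13, which attracts B cells, stood at 6.38, 6.64, 9.02 and 7.40, and both of its probe sets were lower. Ccl6 (7.18, 6.84, 9.55, 8.48) and Ccl9 (6.44, 6.54, 8.19, 7.29), chemokines of myeloid cells, lay above both saline arrays on both GN arrays. Osmr, the oncostatin M receptor gene, differed by -0.76, and Ackr3, a scavenging chemokine receptor, by -0.68. Il34, a ligand of the receptor encoded by Csf1r that tubule cells make, stood at 6.56, 6.65, 6.11 and 6.94 and was the 1 higher member. Among adhesion molecules 2 of 10 kept were at least 1.5-fold lower, Vcam1 at 7.19, 7.12, 8.80 and 7.89 and the leukocyte integrin gene Itgb2 at 6.78, 6.52, 8.53 and 7.82. Icam1 differed by 0.14 and the adhesion list had a median of -0.25.

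Tubular injury and acute phase genes had a difference below 0 in 27 of 29 kept of 43 listed, against 3679 of all 8207 genes, 15 of them at least 1.5-fold lower and 0 higher, with a median of -0.59. Saa3, an acute phase protein gene, stood at 6.09, 6.18, 10.80 and 8.95. Lcn2 (NGAL), a lipocalin of stressed tubules, stood at 5.74, 6.43, 8.61 and 6.83, and these were the most negative differences of the list. Serpina10, a protease inhibitor gene, stood at 5.92, 6.02, 7.83 and 6.46, and Havcr1 (Kim-1), a marker of injured proximal tubule, at 6.07, 6.14, 7.08 and 6.30. Both were nearer to Saline+Captopril than to the array labelled GN+Water on GN+Captopril. Cp, a ferroxidase gene, stood at 8.78, 9.30, 11.23 and 9.95, with all 7 probe sets lower, and stayed above both saline arrays. Fgb, a fibrinogen chain, was as high on Saline+Water as on the array labelled GN+Water, at 7.05, 5.93, 6.98 and 5.62. Clu differed by -0.71 and Anxa3 by -0.91.

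**Figure D2:**
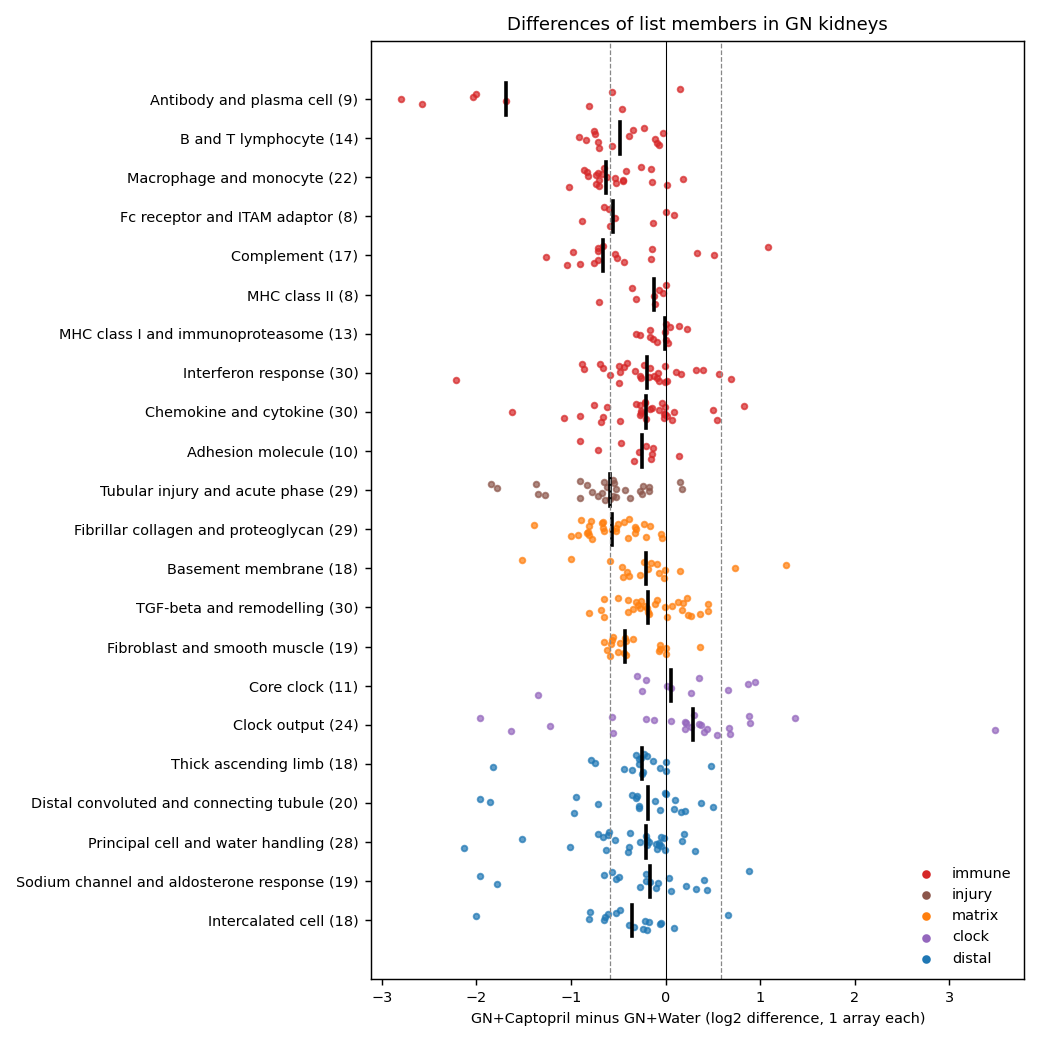
Difference between the 2 GN arrays (GN+Captopril minus GN+Water, log2) for each kept member of the 22 gene lists, 1 point per gene, with a black bar at the list median, the number of kept genes in brackets and dashed lines at 1.5-fold. The antibody list has its median at -1.69, the class I list at -0.01, and clock genes reach from -1.96 to 3.48.

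Part of the matrix genes were lower on GN+Captopril, among them collagens and proteoglycans of the interstitium. Over the 4 matrix lists, 24 of 95 kept genes (25.3%) were at least 1.5-fold lower and 2 (2.11%) higher. The shares over all genes were 4.52% and 3.70%. All 29 kept of 42 fibrillar collagen and proteoglycan genes had a difference below 0, against 3679 of all 8207 genes, and 14 were at least 1.5-fold lower, with a median of -0.57. Lum, a proteoglycan that binds collagen fibrils, stood at 5.48, 5.97, 7.76 and 6.36. Col3a1, the type III collagen chain of soft interstitium, stood at 8.74, 8.91, 10.62 and 9.69, with both probe sets lower. For Lum and Col3a1, GN+Captopril remained above both saline arrays.

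Other collagen and matricellular genes of that list were also lower. Col6a1 stood at 6.69, 7.51, 8.70 and 7.87, and Sparcl1, a matricellular protein gene, at 7.27, 7.48, 8.39 and 7.50. Col6a2 differed by -0.82. Col1a1, the main chain of type I collagen, was lower in 1 of 2 probe sets and differed by 0.00 in the other. Col1a1 stood at 7.99, 7.24, 8.19 and 7.19, so that Saline+Water was close to the array labelled GN+Water. Fn1, Sparc and Bgn, named after their values were seen, differed by -0.81, -0.79 and -0.78.

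Basement membrane genes differed in both directions. Of 18 kept of 28 listed, 3 were at least 1.5-fold lower and 2 higher, with a median of -0.21. Npnt, which encodes the integrin ligand nephronectin, stood at 9.32, 10.23, 11.23 and 9.71, and all 5 of its probe sets were lower. Smoc2 stood at 5.94, 6.82, 7.82 and 6.82, and Nid1, a linker of laminin and type IV collagen, differed by -0.59. The laminin chain genes Lama3 (7.69, 7.41, 6.63, 7.89) and Lama1 (7.33, 7.10, 6.67, 7.41) were lowest on the array labelled GN+Water. The type IV collagen genes Col4a1 and Col4a2 differed by -0.27 and -0.07.

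In the TGF-beta and remodelling list 4 of 30 kept genes were at least 1.5-fold lower and 0 higher, with a median of -0.19. Ccn2 (CTGF), which is induced by TGF-beta, stood at 8.69, 9.35, 10.27 and 9.46. Mmp14, a membrane collagenase, stood at 7.05, 7.40, 8.66 and 7.98, and Timp1, an inhibitor of matrix proteases, at 6.16, 5.73, 7.07 and 6.42. Tgfb1 itself differed by -0.31. Adamts1 differed by -0.65 and Mep1a, a brush border protease gene, by 0.45.

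Fibroblast and smooth muscle genes gave a median of -0.43, with 3 of 19 kept of 24 listed at least 1.5-fold lower, or 6 after quantile normalisation and also after cyclic loess. Rgs5, a pericyte marker, stood at 8.57, 9.49, 10.01 and 9.36. Acta2, the smooth muscle actin of myofibroblasts and vessels, stood at 9.54, 9.48, 10.02 and 9.44, and its other probe set differed by -0.13. Pdgfra, a fibroblast receptor, stood at 6.88, 8.11, 9.00 and 8.43. Acta2 and Rgs5 on GN+Captopril were thus no higher than on Saline+Captopril, and Pdgfra was higher.

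**Figure D3:**
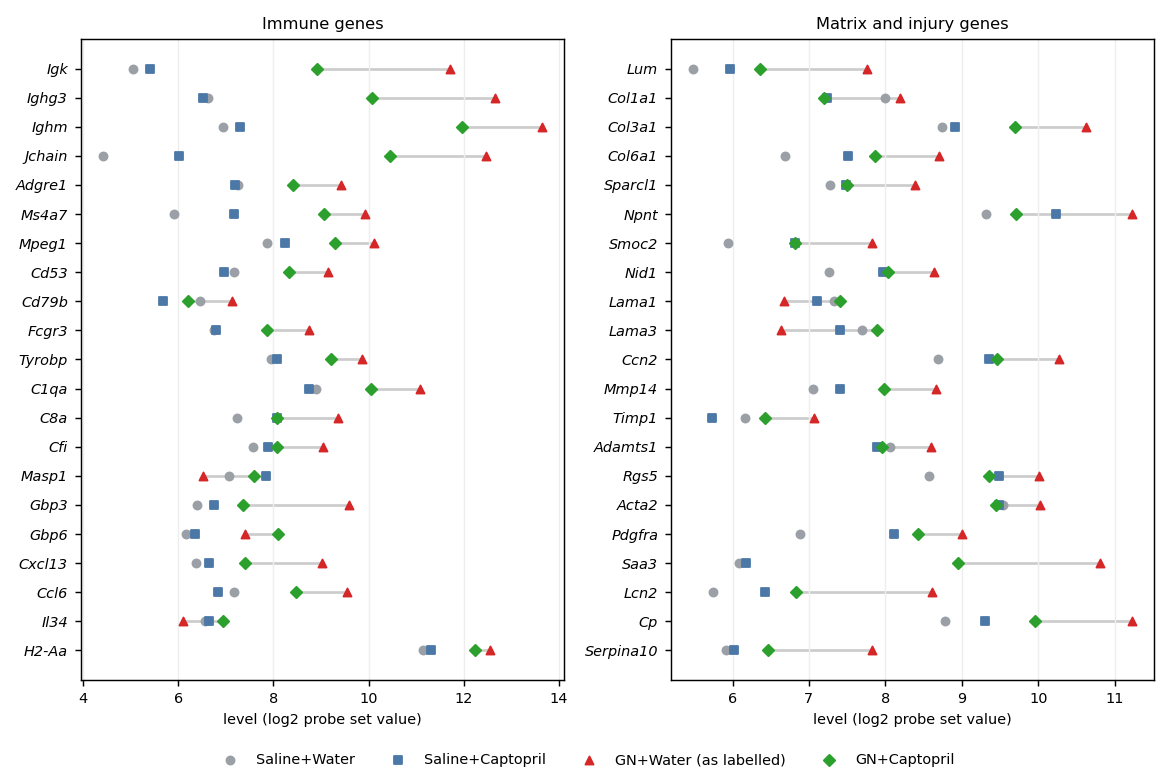
Levels (log2 probe set value) of selected immune genes and of matrix and injury genes on the 4 arrays, 1 point per array, with a grey line joining the 2 GN arrays. For most immune genes GN+Captopril lies between the saline arrays and the array labelled GN+Water, as for Adgre1 at 8.41 against 9.43, whereas Gbp6, Il34, Masp1, Lama1 and Lama3 run the other way.

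Clock genes past 1.5-fold differed in both directions. Of 11 kept of 20 core clock genes, 3 were at least 1.5-fold higher on GN+Captopril and 1 lower. The core clock median was 0.06. In the clock output list 6 of 24 kept of 28 were higher and 3 lower, with a median of 0.29. Over both lists 9 of 34 (26.5%) were at least 1.5-fold higher and 4 (11.8%) lower, against 3.70% and 4.52% of all genes.

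Arntl, the activator of the loop, was the lower member and stood at 7.36, 7.13, 7.64 and 6.30. GN+Captopril was the lowest of the 4 arrays. Arntl was read from 1 probe set, which is shared with other transcripts or genes, and it is not among the genes kept without shared probe sets or at a 60th percentile filter, where the core clock median was 0.31. The repressor genes Nr1d1 (8.20, 7.86, 7.14, 8.01) and Cry2 (7.29, 6.86, 6.58, 7.24) were lowest on the array labelled GN+Water and near the saline arrays on GN+Captopril. Nr1d2, which encodes REV-ERB beta, stood at 8.73, 9.94, 9.29 and 10.24, highest on GN+Captopril, with both probe sets higher. Rora, an activator of Arntl, differed by 0.35, with all 3 probe sets higher, and the repressor gene Bhlhe40 by 0.27. Past 1.5-fold, the repressor genes Nr1d1, Nr1d2 and Cry2 were thus higher and the activator Arntl lower. Rora, with a difference under that threshold, was above 0 although it is an activator.

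Dbp, Tef and Hlf are bZIP factors that carry the clock's signal to its targets, and Dbp had the largest difference of the clock lists. Dbp stood at 8.51, 9.51, 7.48 and 10.96, and was 11.2-fold higher on GN+Captopril. Its other probe set stood at 8.09, 8.60, 6.71 and 10.04. For Dbp the array labelled GN+Water was the lowest and GN+Captopril the highest of the 4, so both arrays of the pair lay outside the saline range. Tef stood at 10.51, 10.10, 9.19 and 10.57 and was 2.59-fold higher, and its 2 other probe sets differed by 1.38 and 0.27. Hlf stood at 9.30, 9.45, 8.91 and 9.58. For Tef and Hlf the array labelled GN+Water was the lowest and GN+Captopril the highest, though only a little above the higher saline array.

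Genes of the loop under the level filter were read as well, after their values were seen. Nfil3, a repressor that competes with Dbp for the same sites, stood at 6.31, 5.16, 5.87 and 4.38, the last close to the background limit of 4.36. Npas2, a partner of Arntl, stood at 6.69, 5.97, 5.91 and 5.08. Per3 stood at 6.00, 6.15, 5.50 and 6.37, with all 3 probe sets higher. The direction of Nfil3 and Npas2 was that of Arntl, and that of Per3 was that of Dbp. Per1 differed by -0.21, Clock by -0.25, Per2 by 0.16 and Cry1, near background, by -0.10. The kinase genes Csnk1d and Csnk1e, which mark the Period proteins for decay, differed by 0.06 and 0.01.

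Output genes past 1.5-fold lay in both directions. Of the 24 kept, 17 had a difference above 0 and 7 below, against 4157 of all 8207 genes above 0. GN+Captopril was the highest of the 4 arrays for 11 (45.8%) of them, against 15.3% of all genes. Usp2, a deubiquitinase gene, stood at 9.93, 10.25, 9.67 and 10.56, and Lpin1, a phosphatidate phosphatase gene, at 9.29, 9.46, 8.85 and 9.74, with both probe sets of each higher. The 3 members at least 1.5-fold lower were Sgk1, Cyp4a14 and Hspa1b. Cyp4a14 is also in the female-biased list. Hspa1b stood at 6.93, 10.07, 9.82 and 8.60. The time of day at which kidneys were taken is not given in the labels used here, and its part in these differences was not tested. Immediate early and stress genes as a list had a median of 0.00, with 1 of 28 kept genes at least 1.5-fold higher and 4 lower.

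The promoters of these genes were read from the RefSeq table of build GRCm38.p6, which held 12 of the 14 kept genes. In the 250 bases before each annotated start, both strands were searched for the E-box CACGTG, bound by the CLOCK and BMAL1 pair. They were also searched for the D-box TTATGTAA or TTACGTAA, bound by DBP, TEF, HLF and NFIL3. An E-box was in this window for 2 of the 12 genes, Tef and Per1, against 6.86% of all 27025 genes in the table. A D-box was in it for 1 gene, Timeless, against 1.10% of all genes. The windows shown are those of Tef, with an E-box before both of its starts, of Per1, with an E-box before 1 of its 2 starts and a difference of -0.21, and of Dbp, with the largest difference and neither motif in the window. Capitals mark the E-box.
Tef, first start, chr15:81802423-81802672, plus strand: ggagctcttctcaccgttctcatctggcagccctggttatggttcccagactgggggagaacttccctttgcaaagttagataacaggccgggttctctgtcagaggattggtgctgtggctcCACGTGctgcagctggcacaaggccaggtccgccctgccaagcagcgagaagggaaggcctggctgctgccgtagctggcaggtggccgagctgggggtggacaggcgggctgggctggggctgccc
Tef, second start, chr15:81811164-81811413, plus strand: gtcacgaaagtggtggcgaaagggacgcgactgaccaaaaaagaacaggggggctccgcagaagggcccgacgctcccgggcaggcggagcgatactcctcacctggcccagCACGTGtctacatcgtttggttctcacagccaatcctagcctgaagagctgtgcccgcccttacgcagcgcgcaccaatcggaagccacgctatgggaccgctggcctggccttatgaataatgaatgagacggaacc
Per1, first start, chr11:69098699-69098948, plus strand: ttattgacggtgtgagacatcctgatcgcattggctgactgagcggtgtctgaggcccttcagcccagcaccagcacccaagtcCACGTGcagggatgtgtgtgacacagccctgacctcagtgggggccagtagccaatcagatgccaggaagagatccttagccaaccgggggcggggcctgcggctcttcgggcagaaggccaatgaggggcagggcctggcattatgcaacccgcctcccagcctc
Dbp, chr7:45704997-45705246, plus strand: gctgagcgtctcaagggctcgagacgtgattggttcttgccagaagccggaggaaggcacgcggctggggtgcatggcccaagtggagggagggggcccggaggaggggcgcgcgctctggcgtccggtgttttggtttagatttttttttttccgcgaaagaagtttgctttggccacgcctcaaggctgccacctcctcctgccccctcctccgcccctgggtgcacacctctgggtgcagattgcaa
The E-box of Tef began 127 bases before the first start and 138 before the second, and that of Per1 166 bases before the start shown. Per1 has another start in the table, whose window (chr11:69099902-69100151) holds neither motif. A match is a description of the letters and not a bound site, and the window leaves out more distant elements.

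**Figure D4:**
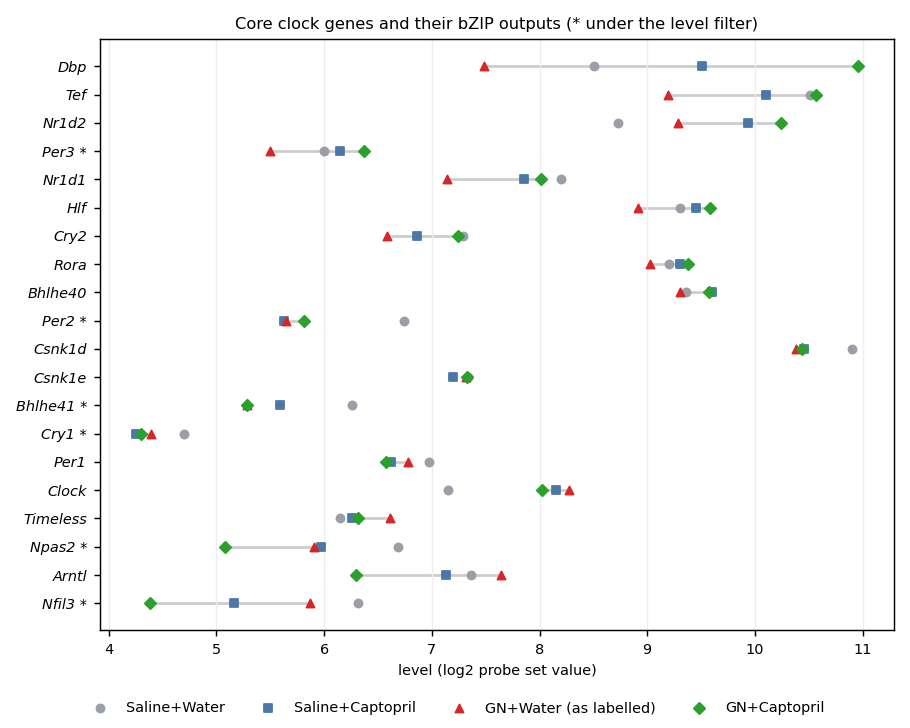
Levels (log2 probe set value) of core clock genes and of the bZIP output factors on the 4 arrays, sorted by the difference between the 2 GN arrays, with asterisks on genes under the level filter. Dbp reaches from 7.48 on the array labelled GN+Water to 10.96 on GN+Captopril, and Arntl, Npas2 and Nfil3 run the other way.

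Part of the distal nephron genes were lower on GN+Captopril, led by Aqp4, Sgk1, Pvalb and Foxq1. Of 98 kept genes in the 5 lists, 23 (23.5%) were at least 1.5-fold lower and 2 (2.04%) higher, while 73 were neither. Over all genes, 4.52% were lower and 3.70% higher. GN+Captopril was the lowest of the 4 arrays for 39 (39.8%) of them, against 13.3% of all genes. It lay above both saline arrays and below the array labelled GN+Water for 11.2%, near the 12.1% of all genes. Genes lowest on the array labelled GN+Water, 14.3% of these and 30.2% of all, could not enter that count.

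In the thick ascending limb list 3 of 18 kept of 26 were at least 1.5-fold lower and 0 higher, with a median of -0.25. Foxq1, a forkhead factor gene, stood at 6.67, 6.73, 8.46 and 6.64, and was high on the array labelled GN+Water alone. Kcnj1, the ROMK potassium channel, stood at 10.24, 10.28, 10.79 and 10.03, and Ptger3, a prostaglandin receptor, at 8.72, 9.48, 9.88 and 9.09. The defining markers differed less, Umod by -0.31 (13.28, 13.41, 13.52, 13.22) and the sodium transporter gene Slc12a1 by -0.28 (11.60, 12.57, 12.74, 12.47). Cldn16, a paracellular magnesium pore, differed by -0.36, and Irx1 by 0.48.

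The distal convoluted and connecting tubule list had a median of -0.19, with 5 of 20 kept of 27 at least 1.5-fold lower and 0 higher. Pvalb, a calcium buffer of the early distal convoluted tubule, stood at 9.31, 6.05, 7.44 and 5.57. It was lower on both captopril arrays than on both water arrays. Calb1, the calcium buffer of the connecting tubule, showed the same order at 12.56, 11.50, 12.23 and 11.26, and its other probe set differed by -1.08. Slc12a3, the thiazide-sensitive transporter that defines the segment, stood at 11.99, 11.44, 11.58 and 11.27 and also had both captopril arrays below both water arrays, by smaller steps. Both water arrays carry a limit: Saline+Water stood apart with a spike-in median of 10.8, and the sex-linked RNA of the other disagreed with its label. The share of all genes in this order was not counted.

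Other genes of calcium and magnesium handling in this list had smaller differences than Pvalb. Slc8a1, a sodium-calcium exchanger, stood at 7.61, 8.42, 8.74 and 7.79, and its 2 other probe sets differed by -0.35 and 0.00. Trpm6, the magnesium channel, differed by -0.36, S100g by -0.11 and Wnk4, a kinase gene that controls the transporter encoded by Slc12a3, by -0.01. Kl, which encodes Klotho, stood at 11.93, 11.69, 11.18 and 11.68, lowest on the array labelled GN+Water. Klk1b5, a kallikrein gene, was the remaining lower member, with a difference of -0.71.

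Sgk1, the aldosterone- and glucocorticoid-induced kinase that keeps sodium channels at the cell surface, stood at 9.10, 9.70, 11.05 and 9.09. The array labelled GN+Water was alone high, and Sgk1 was 3.89-fold lower on GN+Captopril. The subunits of the epithelial sodium channel differed less: Scnn1a stood at 9.41, 8.78, 8.98 and 8.45, Scnn1b at 7.61, 7.23, 7.29 and 7.33, and Scnn1g at 8.71, 8.86, 9.23 and 8.74. Of 19 kept of 27 genes of the sodium channel and aldosterone list, 3 were at least 1.5-fold lower and 1 higher, with a median of -0.16. The other lower members were Lcn2 and St14, a membrane protease gene (8.42, 7.98, 8.63, 7.98), and the higher one was Usp2. Tsc22d3 (GILZ), induced by the same receptors as Sgk1, stood at 7.51, 8.84, 9.03 and 8.46, and Fkbp5, another such target, at 9.59, 8.98, 8.81 and 9.25. Of Sgk1, Tsc22d3 and Fkbp5, only Sgk1 was thus past 1.5-fold. Under that threshold, Tsc22d3 was lower and Fkbp5 higher on GN+Captopril.

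Principal cell and water handling genes had a median of -0.21, with 8 of 28 kept of 38 at least 1.5-fold lower and 0 higher. Aqp4, the water channel of the basolateral membrane, stood at 7.21, 6.35, 8.33 and 6.20, and its other probe set differed by -2.27. Aqp2, the vasopressin-regulated channel of the apical membrane, stood at 9.91, 10.27, 10.93 and 10.30, close to Saline+Captopril on GN+Captopril. The vasopressin receptor gene Avpr1a stood at 6.41, 6.49, 7.09 and 6.08, with both probe sets lower. Avpr2, the receptor that acts on Aqp2, differed by -0.39, and the prostaglandin receptor gene Ptger4 by -0.66. Slc14a2, a urea transporter, stood at 7.29, 8.05, 8.44 and 7.72, and its other probe set differed by -0.01.

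The intercalated cell list had a median of -0.36, with 6 of 18 kept of 29 at least 1.5-fold lower and 1 higher. One of the 6 was Jchain, which is also an antibody gene. Slc26a4, the pendrin anion exchanger of the base-secreting type, stood at 9.19, 9.26, 9.89 and 9.09, and Foxi1, the factor that specifies these cells, at 8.35, 8.28, 8.64 and 7.99. Slc4a1, the exchanger of the acid-secreting type and of red blood cells, stood at 8.28, 8.05, 8.44 and 7.95, with all 3 probe sets lower. Foxi1 and Slc4a1 were thus lowest on GN+Captopril and highest on the array labelled GN+Water. Hepacam2 differed by -0.81 and Hmx2 by -0.64. The proton pump subunit genes Atp6v1b1 and Atp6v0a4 differed by -0.33 and -0.24. Kcnj15, a potassium channel gene, was the higher member at 10.57, 10.37, 9.84 and 10.50.

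**Figure D5:**
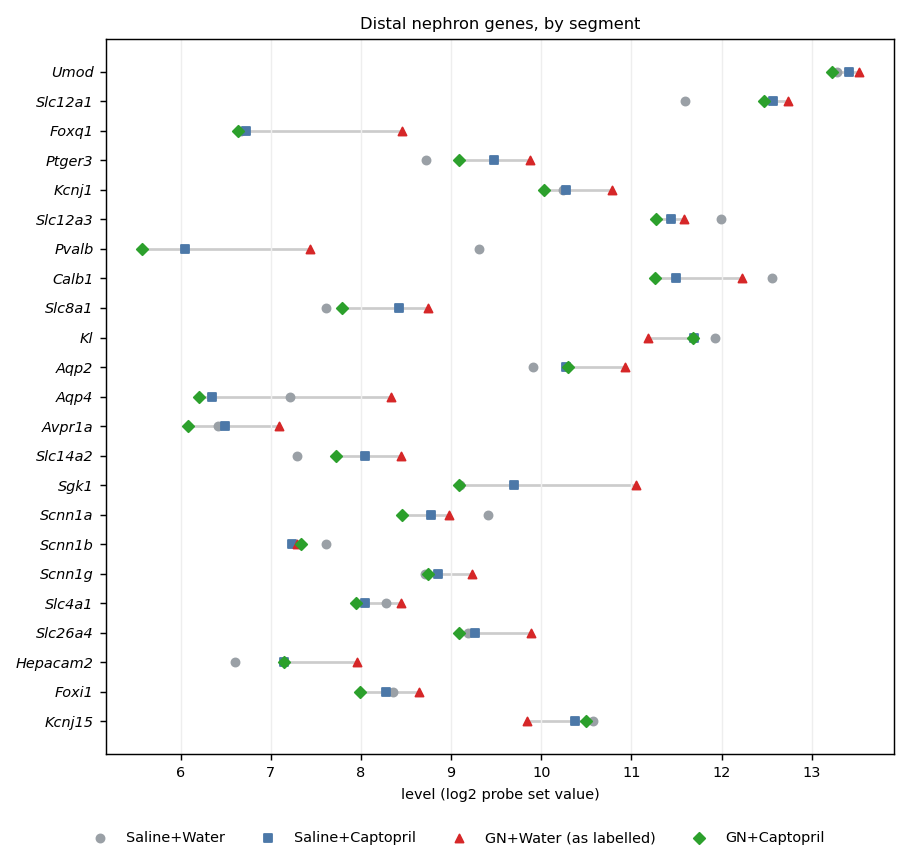
Levels (log2 probe set value) of distal nephron genes on the 4 arrays, ordered by segment from thick ascending limb to intercalated cell, with a grey line joining the 2 GN arrays. Pvalb, Calb1 and Slc12a3 have both captopril arrays below both water arrays, and Sgk1 and Foxq1 are high on the array labelled GN+Water alone. Both water arrays carry limits given in the text.

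Renin (Ren1) and the angiotensin receptor gene Agtr1a were not analysed here, so the pathway that captopril acts on was read in part, from 13 kept of 26 listed genes. Ace, which encodes its target, stood at 9.48, 8.79, 8.30 and 8.82, and Agt, the angiotensin precursor gene, at 9.51, 9.25, 9.40 and 9.07. In the renin-angiotensin and kallikrein-kinin list 1 kept gene was at least 1.5-fold lower, the peptidase gene Mme, and 0 were higher, with a median of 0.05. Mme stood at 7.35, 9.15, 9.85 and 8.80.

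Markers of neighbouring tissues and blood were read beside these results, and their part in them was not tested. Of 8 kept adipose genes 3 were at least 1.5-fold higher on GN+Captopril and 0 lower, with a median of 0.37. Their defining marker Adipoq stood at 6.24, 7.77, 8.25 and 8.92. Of 6 kept adrenal genes 1 was higher, Hsd3b1 (6.01, 5.96, 5.83, 7.39), with a list median of 0.21. In the urothelium list 0 of 4 kept genes were past 1.5-fold, with a median of -0.24, and 0 of 3 red blood cell genes were, with a median of -0.35.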

How the data were processed

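Biotinylated cRNA made from whole kidney RNA was hybridised to Affymetrix arrays (labels' protocols). The authors deposited log2 values for 22690 probe sets on 4 arrays. The log2 scale was judged from their range. GCOS and RMA are named in the submitters' processing notes, without version or role, and how background was corrected and arrays normalised is not given in the sources used here. Values were used as deposited.

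Names came from the platform annotation, and symbols were updated by Entrez ID from the RefSeq gene table of GRCm38.p6 (20364 of 20393 with 1 symbol). Another 691 had several symbols and 1606 none, and were not named. For example, Ren1, Agtr1a, C3 and Spp1 were not analysed here. Just inside the filter lay Il17b and Lgals12, and just outside Fgf22 and Epha2, all at 6.273.

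Of 34 gene lists, 22 are described above and the others serve as checks. The members and lists were chosen with earlier results of these data known. The rule for named genes took all kept core clock genes with Dbp, Tef and Hlf, the 6 members with the largest absolute difference in each other list and the 3 in each check list. Added to them are fixed segment markers, Ace and Agt, and the 10 highest and 10 lowest genes outside the sex lists. Not every gene the rule took is printed, and others were named after their values were seen. The background limit of an array is the 90th percentile over 27 negative controls. No test across arrays was possible, and precision is limited by the number of arrays. The summary code was tested on simulated data. Python 3.11.15, R 4.3.3 and limma 3.58.1 were used, the last for quantile and cyclic loess normalisation as alternatives. Further alternatives were median centring, other filters, the mean of all probe sets, no shared probe sets, 2-fold, the mean over members and members in no other list.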

Additional observations from a re-analysis of the deposited data

Results flagged for a closer look

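The median of the antibody and plasma cell list had opposite signs in the 2 captopril comparisons. The median difference between captopril and water was -1.69 in GN kidneys and 0.35 in saline kidneys, over the same 9 kept genes. Of the 9 genes, Ighg3 (-2.58 in GN, -0.10 in saline), Igha (-0.81, -0.19) and Derl3 (-0.46, -0.18) were lower with captopril in both and Xbp1 (0.15, 0.23) higher in both. The saline value rests on Saline+Water, the array that stood apart, with a spike-in median of 10.8 against 7.89 on Saline+Captopril. Igk, for example, was low in both saline groups, at 5.05 without captopril and 5.41 with it. Jchain on Saline+Water, at 4.41, lay under the background limit of that array, 4.81. The difference between the 2 comparisons was not tested, since each group has 1 array.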

How the results depend on the processing

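Each group has 1 array, so no array could be left out, and the settings below change only the processing. No paired analysis was possible because each group has 1 array and no comparison here comes from a test. The number of genes at least 1.5-fold lower was 371, and 229 when the filter was set to the 60th percentile. At 2-fold, 114 genes were higher and 92 lower, in place of 304 and 371. Genes that were higher made up 45.0% of those past 1.5-fold, and between 42.0% and 51.9% under the other normalisations, filters and probe set choices.

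The antibody and plasma cell median of -1.69 was -0.81 without an expression filter, -2.01 with the filter at the 60th percentile, -0.56 with the mean of all probe sets, -2.29 without shared probe sets, -1.25 over members in no other list and -1.42 as a mean. The core clock median of 0.06 was 0.31 with the filter at the 60th percentile. Apart from these, the medians of the 22 lists stayed within 0.25 of their value under the alternatives tried, a tolerance set for this work. Among the check lists, the male-biased median of 2.30 was 2.66 without shared probe sets and 2.67 as a mean, the sex chromosome median of -0.38 was 0.53 as a mean, and the red blood cell median of -0.35 was 0.09 without an expression filter. The cause was not tested. Numbers of list members past 1.5-fold moved by over 1.5 times in 25 of 306 counts of higher members and 47 of 306 of lower members, many of them small counts or at 2-fold. In the fibroblast and smooth muscle list, quantile normalisation and cyclic loess gave 6 lower members in place of 3. The 188 genes examined singly were compared only under alternatives where they still passed the filter, in 1202 comparisons. Of these genes, 3 moved by over 1.5 times: Ighm (-2.60 without shared probe sets), Slc7a13 (4.69) and Igf2 (-1.31), the last 2 with the mean of all probe sets. Others, among them Igk and Ighg3, dropped out with that mean and were not compared there. The probe sets of Igk differed by -2.80 to -0.50 and those of Ighg3 by -2.58 to 0.04. None of the 188 that was past 1.5-fold changed direction in the comparisons made.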

Other observations

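Outside the sex lists, the 10 genes highest on GN+Captopril relative to the array labelled GN+Water were each lowest of the 4 arrays on the latter, and the 10 lowest were each highest there. The ranking itself used the array labelled GN+Water, so an extreme place of that array was favoured in advance. The sex lists are a selection, and whether the genes named here differ by sex was not tested. Ces1g, a carboxylesterase gene, stood at 7.54, 8.58, 5.23 and 9.68, and the protease inhibitor gene Pzp at 10.31, 9.96, 5.68 and 9.88. Ugt8a (9.89, 10.87, 7.23, 10.71), Azgp1 (11.15, 10.67, 7.57, 10.72) and Inmt (13.12, 13.65, 11.09, 13.68) lay in a like order. At the other end, Arg2, the mitochondrial arginase gene, stood at 4.97, 6.29, 9.53 and 6.61, and Hdc, which makes histamine, at 6.44, 5.32, 8.44 and 5.64. Cbr1, a carbonyl reductase gene, stood at 9.14, 9.18, 11.33 and 8.95, and Igf2, a growth factor gene, at 7.51, 6.71, 8.79 and 6.38. On GN+Captopril these 4 were nearer to Saline+Captopril than to the array labelled GN+Water.

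Marker lists of the proximal tubule, podocyte and endothelium were read as well. Of 32 kept proximal tubule genes, 6 were at least 1.5-fold higher on GN+Captopril and 2 lower, with a median of 0.10. At 2-fold, 4 were higher and 1 lower. The organic anion transporter gene Slc22a6 stood at 12.53, 11.85, 10.60 and 12.00, and Cyp27b1, which activates vitamin D, at 7.47, 7.09, 6.74 and 8.03. Of 12 kept podocyte genes 1 was lower, Cdkn1c, with a median of -0.19. Of 24 kept endothelial genes 2 were lower, Thbd and Ramp2, with a median of -0.24, while the VEGF receptor gene Kdr differed by 0.54. The lower genes were 8.33% of the podocyte list and 8.33% of the endothelial list, against 4.52% of all genes.

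Exact ties between arrays were unevenly spread. GN+Captopril and Saline+Captopril had the same deposited value for 754 of the 8207 genes (9.19%), against 371 (4.52%) for the 2 GN arrays and 110 (1.34%) for the 2 saline arrays.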
